A study of Mus musculus with 12 samples.

Results

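The 10 genes described here encode enzymes that modify and crosslink collagen, and their transcripts were read from 12 mouse tumour libraries. They were chosen by symbol among the 24421 genes of the deposited expression table, and all 10 were found. They are the lysyl oxidases Lox, Loxl1, Loxl2, Loxl3 and Loxl4, the lysyl hydroxylases Plod1, Plod2 and Plod3, and the prolyl 4-hydroxylase catalytic subunits P4ha1 and P4ha2. The tumours were murine intrahepatic cholangiocarcinomas (bile duct cancers of the liver) of the 425-ICC model, collected when treatment had lasted 8 days and profiled by bulk RNA sequencing. Combination tumours received GC together with dual immune checkpoint blockade, GC tumours received GC alone, ICB tumours received dual blockade alone, and Control tumours received control IgG, with 3 libraries in each group. The labels give GC as an abbreviation only, read here as gemcitabine plus cisplatin, and the blockade is directed at CTLA-4 and PD1 according to the title of the series. Strain, age, sex, dose, the number of animals and the way the tumours were grown are not given in the sources used here, and no label ties the 3 libraries of a group to separate animals. The p-values below therefore reflect only how far these libraries spread, which may be technical.

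Collagen chains are modified inside the endoplasmic reticulum before they leave the cell. Prolyl 4-hydroxylases, in which a P4ha subunit pairs with the P4hb subunit, hydroxylate prolines so that the triple helix is stable at body temperature, and Plod enzymes hydroxylate lysines in the chains. Outside the cell the copper-dependent lysyl oxidases convert lysines and hydroxylysines of collagen and elastin to aldehydes, which then form covalent crosslinks that stiffen the matrix. In fibrotic tissue and in tumours rich in stroma these enzymes come largely from fibroblasts, and several of them, among them Lox, Plod2, P4ha1 and P4ha2, are known targets of the hypoxia-inducible factor HIF-1.

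The libraries held different amounts of other tissue. A list of 20 hepatocyte genes made up 0.754% to 18.3% of all FPKM (read fragments scaled to transcript length and to library total) in Combination, 0.133% to 1.19% in GC, 0.0720% to 0.419% in ICB and 0.00158% to 0.0155% in Control. Combination replicate 2 was the richest in hepatocyte transcripts, Combination replicate 1 was the richest in small intestinal ones, and GC replicate 2 and Control replicate 2 carried skeletal muscle transcripts. Markers of the labelled tissue were uneven: the biliary keratin Krt19 was between 3.58 and 48.3 FPKM in Combination, between 1.54 and 7.77 in GC and between 2.16 and 7.04 in ICB, and stood at 18.2, 0 and 0 FPKM in Control replicates 1, 2 and 3. The secreted phosphoprotein Spp1 was at 276 FPKM in Combination replicate 2 and at 1761 FPKM or more in every other library. Among other markers on the biliary list, Sox9 was also lowest in Combination replicate 2 (7.56 FPKM), whereas Krt18 was highest there (189 FPKM). Epcam and Cldn4 were each at 0 FPKM in 2 libraries. In bulk tissue, fewer cells of a type and less RNA per cell cannot be told apart.

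The prolyl hydroxylase subunits had the highest mean levels of the 10 members and Loxl4 the lowest. Over the 12 libraries the mean level per length was 78.0 FPKM for P4ha1, 77.2 for P4ha2, 44.2 for Plod3, 42.0 for Loxl3, 36.5 for Plod1, 29.2 for Lox, 26.0 for Plod2, 20.2 for Loxl1, 19.0 for Loxl2 and 6.08 for Loxl4. Several neighbours in this order did not differ beyond their spread: P4ha1 exceeded P4ha2 in 7 of 12 libraries, Plod3 exceeded Loxl3 in 6, Lox exceeded Plod2 in 5, and Loxl1 exceeded Loxl2 in 7. Plod2 exceeded Loxl1 in 11 libraries, and Loxl2 exceeded Loxl4 in 10. For 9 of the 10 members the lowest of all 12 values was in Combination replicate 2, where the summed level of the members was 80.0 FPKM, against 288 to 543 FPKM in the other libraries. Loxl4 was the exception, with its lowest value in GC replicate 1.

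**Figure D1:**
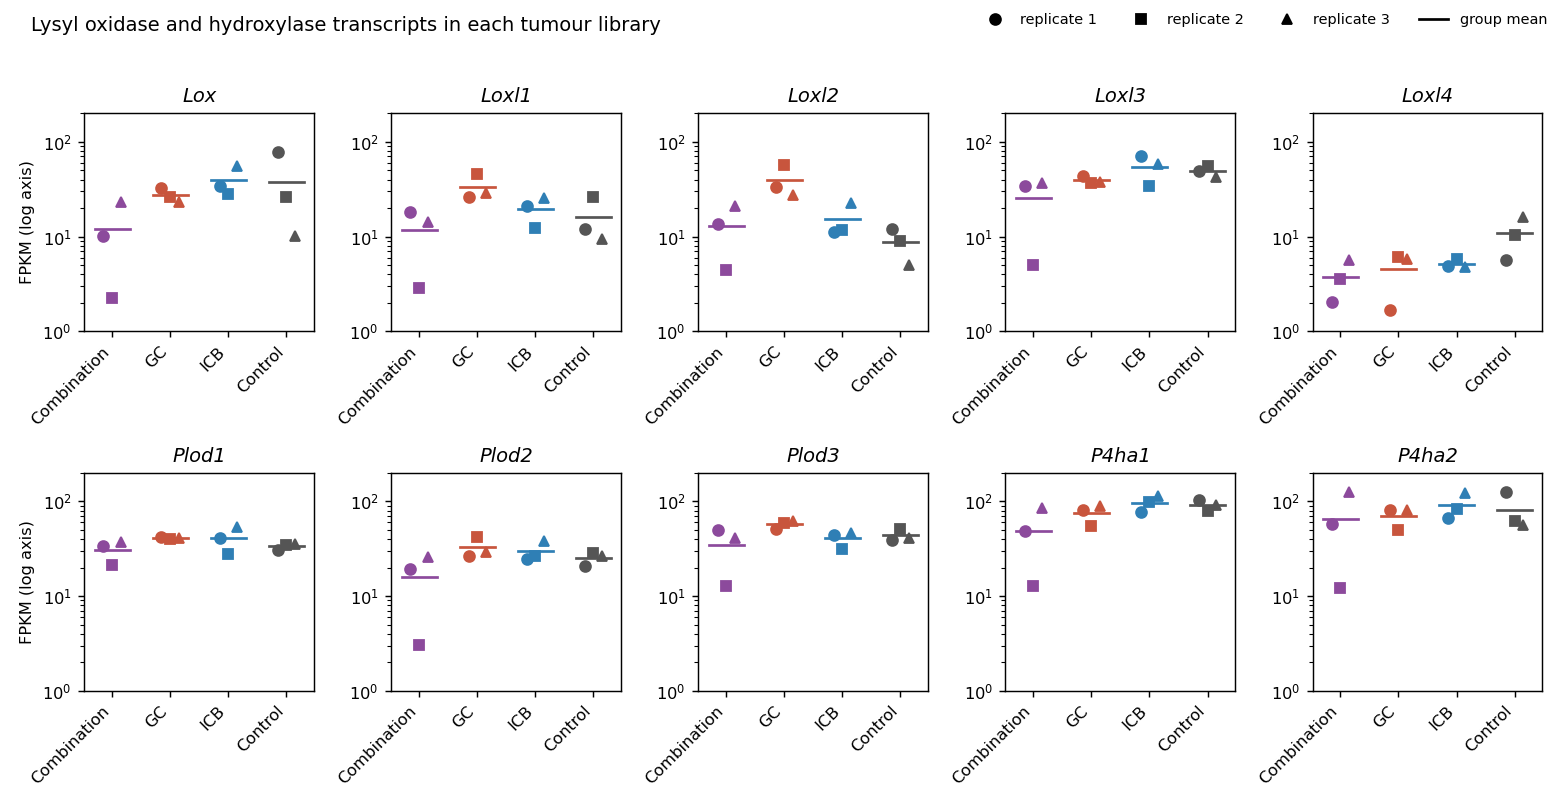
Level of each member in every library (y axis, FPKM on a log axis), with the 4 groups on the x axis, a marker shape for each replicate and a bar for the group mean. Loxl2 stands at 27.5 FPKM or more in the 3 GC libraries and at 12.1 FPKM or less in the 3 Control libraries, while Combination replicate 2 is the lowest library for 9 of the 10 members.

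P4ha1 and P4ha2 supply the catalytic subunit of prolyl 4-hydroxylase. P4ha1 was at 48.9, 12.6 and 85.7 FPKM in Combination replicates 1 to 3, at 80.1, 54.4 and 90.1 in GC, at 76.8, 98.4 and 115 in ICB, and at 103, 79.8 and 91.2 in Control. The GC and ICB values overlap those of Control, and 2 of the 3 Combination values lie below all Control values. P4ha2 was at 58.0, 12.1 and 126 FPKM in Combination, at 80.8, 49.4 and 81.4 in GC, at 67.3, 82.4 and 123 in ICB and at 127, 62.7 and 56.5 in Control, so that all groups overlap. The partner subunit P4hb was at 718 ± 62.8 FPKM in Combination, 676 ± 77.0 in GC, 684 ± 94.6 in ICB and 762 ± 186 in Control (SD, n = 3 each), and in Combination replicate 2, where P4ha1 and P4ha2 were lowest, it stood at 680 FPKM.

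The 2 prolyl hydroxylase genes followed each other closely. Pearson's r of their log2(FPKM + 1) values was 0.93 over the 12 libraries, the highest of the 45 pairs of members. Over the 11 libraries without Combination replicate 2 it was 0.71 and no longer the highest, below Loxl1 with Plod3 (0.83) and Loxl1 with Loxl2 (0.77). This is a description, since the libraries share their tissue content. Because these genes followed each other and are known HIF-1 targets, the 250 bases before each RefSeq start site are shown (GRCm38.p6). The P4ha1 window ends directly before the GENCODE M21 gene, whereas the P4ha2 window lies inside the GENCODE span, 579 to 828 bases past its first base, with 0 exons of the gene in it. Capitals mark the HIF core words ACGTG and GCGTG, read on both strands, so that CACGT and CACGC are the same words on the other strand.
P4ha1, chr10:59323046-59323295, plus strand: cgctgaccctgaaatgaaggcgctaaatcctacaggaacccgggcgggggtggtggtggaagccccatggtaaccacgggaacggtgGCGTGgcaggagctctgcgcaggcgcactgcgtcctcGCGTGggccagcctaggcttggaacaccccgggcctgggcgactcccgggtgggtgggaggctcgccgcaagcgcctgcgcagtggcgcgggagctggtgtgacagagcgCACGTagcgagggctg
P4ha2, chr11:54100674-54100923, plus strand: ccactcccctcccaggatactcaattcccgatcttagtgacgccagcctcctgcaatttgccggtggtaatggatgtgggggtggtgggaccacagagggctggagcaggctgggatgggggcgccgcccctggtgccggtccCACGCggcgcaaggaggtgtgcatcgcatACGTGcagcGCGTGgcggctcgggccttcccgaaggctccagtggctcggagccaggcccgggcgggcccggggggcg
Each window holds 3 such words, 1 ACGTG and 2 GCGTG. Of all 32851 RefSeq windows of this length, 38.6% hold at least 1 of them and 6.58% hold 3 or more, and both windows are rich in G and C (69.6% and 70.0%). Windows were at hand for 5 of the 10 members, and those of Plod3, Plod1 and Loxl4, not printed, hold 4, 1 and 1 such words. A match is a word in the sequence and was not shown here to be a bound site.

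The lysyl hydroxylases come next in the order of action. Plod1, which hydroxylates helical lysines, was at 33.6, 21.4 and 37.1 FPKM in Combination, at 42.2, 39.6 and 41.3 in GC, at 40.9, 28.1 and 53.5 in ICB and at 30.7, 34.6 and 35.3 in Control. All 3 GC values lie above all Control values, by a small margin, and the groups otherwise overlap with Control. Plod2, which hydroxylates the lysines at the chain ends that set the hydroxylysine type of crosslink, was at 19.1, 3.04 and 25.7 FPKM in Combination, at 26.4, 42.5 and 29.5 in GC, at 24.4, 26.7 and 38.1 in ICB and at 20.8, 28.8 and 26.4 in Control. Its highest value is in GC replicate 2, one of the muscle-containing libraries, and every treated group overlaps Control. Plod3, which can also attach glucose to hydroxylysine that carries galactose, was at 50.3, 12.6 and 41.5 FPKM in Combination, at 51.0, 58.9 and 61.8 in GC, at 44.6, 31.3 and 46.8 in ICB and at 39.0, 51.2 and 41.0 in Control. The lowest GC value lies just under the highest Control value.

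Among the oxidases, Loxl2 had the smallest p of the 10 members in the test over all groups. Loxl2, which acts on fibrillar collagen and on basement membrane collagen IV, was at 13.5, 4.47 and 20.9 FPKM in Combination, at 33.2, 57.0 and 27.5 in GC, at 11.3, 11.8 and 22.3 in ICB and at 12.1, 9.07 and 5.06 in Control. All GC values lie above the values of every other group, with GC replicate 2 highest. Loxl1, needed in mice for elastic fibre renewal, was at 18.0, 2.88 and 14.1 FPKM in Combination, at 26.3, 45.5 and 29.0 in GC, at 21.0, 12.3 and 25.7 in ICB and at 11.9, 26.5 and 9.33 in Control. Its lowest GC value and its highest Control value are nearly equal, and that Control value comes from the muscle-containing replicate 2.

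Lox, the founding member of the family, was at 10.2, 2.22 and 23.4 FPKM in Combination, at 32.4, 26.2 and 23.1 in GC, at 34.2, 28.4 and 55.8 in ICB and at 77.6, 26.2 and 10.2 in Control. Its libraries span 10.5-fold in Combination, 1.40-fold in GC, 1.96-fold in ICB and 7.58-fold in Control. Loxl3, which acts on collagen and on fibronectin fibres, was at 34.0, 5.04 and 36.9 FPKM in Combination, at 44.0, 36.6 and 37.5 in GC, at 70.9, 34.0 and 57.8 in ICB and at 49.4, 55.7 and 42.6 in Control, and all Combination values lie below all Control values. Loxl4 was weakly expressed, at 2.05, 3.58 and 5.72 FPKM in Combination, 1.68, 6.14 and 5.78 in GC, 4.88, 5.86 and 4.77 in ICB and 5.70, 10.5 and 16.3 in Control. Control replicates 2 and 3 hold its highest values, and Control replicate 1 lies among the treated libraries.

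None of the 10 members passed the test against Control after GC alone. The test was limma's moderated test on log2(FPKM + 1) over 12765 genes, those averaging 1 FPKM or more, which include all 10 members, with Benjamini-Hochberg adjustment and a threshold of 0.05. Of all genes tested, 0.00783% were called. At an unadjusted p under 0.05 there were 2 members, Loxl2 and Loxl4, against 9.86% of all genes. Loxl2 averaged 39.2 ± 15.6 FPKM in GC and 8.74 ± 3.53 FPKM in Control (SD, n = 3 each), a log2 difference of 2.05 ± 0.50 (SE) with a 95% interval of 0.94 to 3.15 and limma adjusted p = 0.177. It was higher in 3 of 3 GC libraries and ranked 128 of 12765 genes by p. Loxl4 averaged 4.53 ± 2.48 FPKM in GC and 10.8 ± 5.30 FPKM in Control (log2 difference -1.12 ± 0.45, limma adjusted p = 0.424), and the difference was -0.66 without GC replicate 1. Loxl1 averaged 33.6 ± 10.4 FPKM in GC and 15.9 ± 9.22 FPKM in Control (1.12 ± 0.57, limma adjusted p = 0.556). The other 7 members had estimates between -0.31 and 0.39. Groups did not overlap for 2 members, Loxl2 and Plod1, both higher in GC, beside 27.9% of all genes in either direction and 18.6% in that one. A count of 2 in 10 is near this background.

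The call on Loxl2 depends on the libraries that set the spread. With the 3 Combination libraries left out of the fit, an alternative chosen after the data had been seen, limma's adjusted p for Loxl2 was 0.0479 and 297 genes were called between GC and Control, against 1 with all libraries. Over all alternatives its adjusted p lay between 0.0479 and 0.874, and its log2 difference between 1.74 and 2.47. Fibroblast markers had higher values in the same GC libraries: the mean log2 value of 12 fibroblast genes ran from 5.70 to 6.74 in GC and from 4.30 to 5.56 in Control, and their summed share of FPKM from 0.404% to 0.808% in GC and from 0.140% to 0.319% in Control. Of the 12, 10 had estimates above 0, beside 58.1% of all genes, and 0 were called. In ICB against Control 10 of the 12 were also above 0, beside 40.9% of all genes. The hepatocyte list mean ran from 4.51 to 7.27 in GC and from 0.44 to 1.79 in Control. The macrophage list mean ran from 6.07 to 6.93 in GC and from 4.18 to 5.96 in Control, and that of smooth muscle and pericytes from 2.96 to 4.48 in GC and from 1.89 to 2.94 in Control, neither with overlap. The part of these cells in the Loxl2 difference was not tested. Without GC replicate 2 and Control replicate 2, the libraries with muscle transcripts, the Loxl2 difference was 1.81 ± 0.65 (limma adjusted p = 0.874).

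No member passed the test after dual blockade alone. Limma called 0 members and 0 of all genes (0%), with 0 members and 1.75% of all genes at an unadjusted p under 0.05. The estimates for the 10 members ran from -0.84 for Loxl4 to 0.74 for Loxl2, 8 of them above 0, beside 40.9% of all genes above 0 and 59.1% below. No member separated ICB from Control, where 9.31% of all genes did. Loxl2 averaged 15.2 ± 6.22 FPKM in ICB and 8.74 ± 3.53 FPKM in Control (0.74 ± 0.50, 95% interval -0.37 to 1.84). For Lox the 95% interval of the difference ran from -1.20 to 2.06, a range that leaves differences of either sign possible.

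After both treatments, 9 of 10 members had estimates below 0 (8 of 10 under TMM scaling, with Plod1 at 0.16), and none passed the test. Without Combination replicate 2 the count was 5 of 10, beside 53.4% of all genes. Of all genes 67.0% had estimates below 0 in this comparison, and 3.95% were called. At an unadjusted p under 0.05 there were 3 members, Loxl3, Loxl4 and P4ha1, against 26.3% of all genes. Loxl4 averaged 3.78 ± 1.84 FPKM in Combination and 10.8 ± 5.30 FPKM in Control (log2 difference -1.27 ± 0.45, limma adjusted p = 0.114). Loxl3 averaged 25.3 ± 17.6 FPKM in Combination and 49.2 ± 6.56 FPKM in Control (-1.32 ± 0.58, limma adjusted p = 0.179), and was the single member whose groups did not overlap, beside 22.9% of all genes in either direction and 13.2% that were lower. P4ha1 averaged 49.1 ± 36.5 FPKM in Combination and 91.4 ± 11.7 FPKM in Control (-1.24 ± 0.53, limma adjusted p = 0.173). The median log2 difference of the members was -0.88, beside -0.29 over all genes tested, and without Combination replicate 2 these medians were -0.05 and -0.04. In the same fit the Loxl3 difference was -0.45, that of P4ha1 was -0.48, that of Plod2 was -0.17 in place of -1.01, and that of Lox was -0.80 in place of -1.59. Above 0 there were Loxl2 at 0.94, P4ha2 at 0.16, Loxl1 at 0.13, Plod1 at 0.075 and Plod3 at 0.072. Without Control replicate 1 the Lox difference was -0.86. With the mean of the hepatocyte list added to the model, 5 of the estimates against Control turned above 0 (Loxl1 at 1.04, Plod3 at 0.77, Plod2 at 0.40, Loxl3 at 0.39 and Plod1 at 0.21), and none passed. That mean ran from 4.86 to 11.0 in Combination and from 0.44 to 1.79 in Control. The ranges do not overlap, so this adjustment cannot be separated from treatment.

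**Figure D2:**
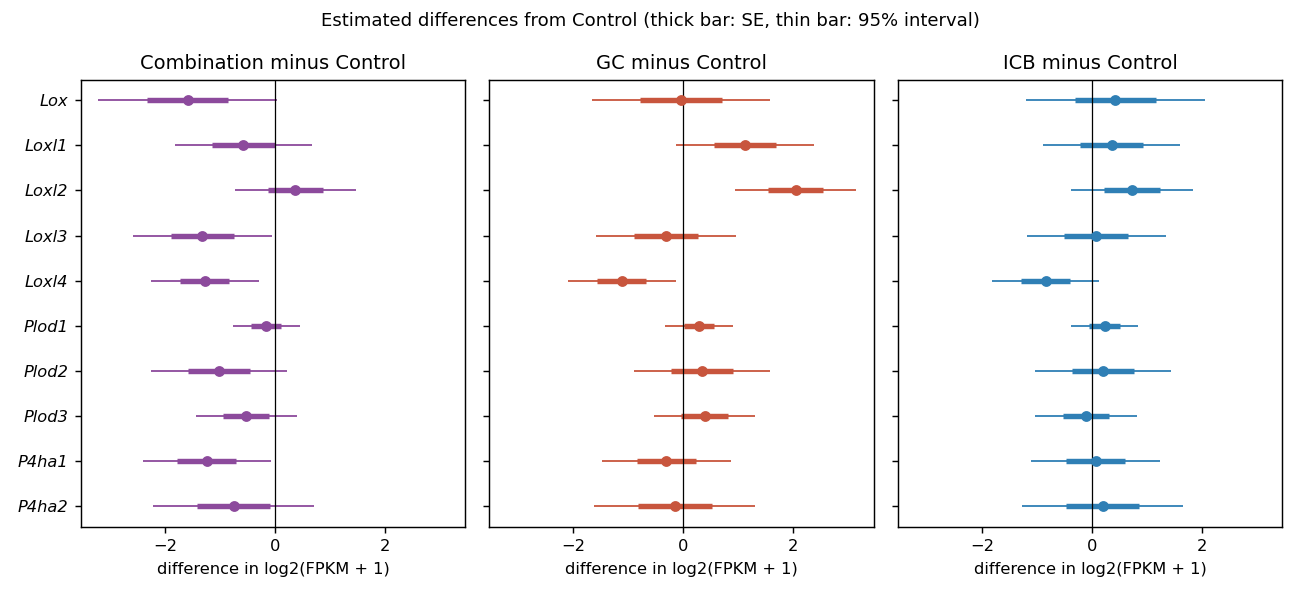
Estimated difference from Control on the log2(FPKM + 1) scale (x axis) for each member (y axis), in panels for Combination, GC and ICB; points are limma estimates, thick bars their SE and thin bars their 95% intervals. The Loxl2 interval for GC runs from 0.94 to 3.15, and 9 of 10 estimates for Combination lie below 0 (8 of 10 under TMM scaling, and 5 of 10 without Combination replicate 2).

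Blockade added to GC was read from Combination against GC. Limma called 0 of the 10 members, with 0.666% of all genes called, and 3 members (Loxl1, Loxl2 and Plod2) at an unadjusted p under 0.05, against 16.5% of all genes. All 10 estimates lay below 0 (9 of 10 under TMM scaling, with Loxl4 at 0.20), as did 76.2% of all genes. In the fit without Combination replicate 2 these were 9 of 10 and 64.5%. Loxl1 averaged 11.7 ± 7.85 FPKM in Combination and 33.6 ± 10.4 FPKM in GC (log2 difference -1.70 ± 0.57, limma adjusted p = 0.243). Loxl2 averaged 13.0 ± 8.22 FPKM in Combination and 39.2 ± 15.6 FPKM in GC (-1.67 ± 0.50, limma adjusted p = 0.209). Groups did not overlap for 5 members, Loxl1, Loxl2, Plod1, Plod2 and Plod3, all lower in Combination, beside 18.4% of all genes in either direction and 14.2% that were lower. Without the intestine-rich Combination replicate 1, Loxl1 (-2.14, limma adjusted p = 0.0328) and Plod3 (-1.27, limma adjusted p = 0.0478) passed, in a fit that called 3014 genes against 85 with all libraries. Without Combination replicate 2 the differences were smaller, at -0.99 for Loxl1 (limma adjusted p = 0.670), -1.10 for Loxl2 (limma adjusted p = 0.657) and -0.31 for Plod3 (limma adjusted p = 0.881). Over all alternatives the adjusted p of Loxl1 lay between 0.0328 and 0.947 and that of Plod3 between 0.0478 and 1.00. The fibroblast list mean ran from 3.37 to 5.12 in Combination and from 5.70 to 6.74 in GC, with no overlap, and its part in these differences was not tested.

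GC added to blockade was read from Combination against ICB, where limma called 0 members and 2.24% of all genes. Lox, Loxl3 and P4ha1 were under 0.05 unadjusted, against 20.5% of all genes. Lox averaged 11.96 ± 10.7 FPKM in Combination and 39.5 ± 14.4 FPKM in ICB (log2 difference -2.02 ± 0.74, limma adjusted p = 0.162), and was the single member whose groups did not overlap, beside 19.6% of all genes in either direction and 10.1% that were lower. Without Combination replicate 2 the Lox difference was -1.23. All 10 estimates lay below 0, as did 64.5% of all genes. In the fit without that library these were 8 of 10 and 44.1%. Whether GC acted differently with and without blockade was tested by the interaction, in which limma called 0 members and 0.0157% of all genes, with 2 members and 8.09% of all genes under 0.05 unadjusted. Estimates were below 0 for 9 of 10 members and for 68.2% of all genes. In the fit without Combination replicate 2 these were 8 of 10 and 50.8%. Loxl2 had the estimate farthest from 0, -2.41 ± 0.71 (95% interval -3.97 to -0.84, limma adjusted p = 0.441), and Loxl1 followed at -2.06 ± 0.81 (limma adjusted p = 0.567), or -1.35 without Combination replicate 2. The moderated F test over the 4 groups called 0 members and 1.83% of all genes, with the lowest adjusted p at 0.161, for Loxl2.

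Ratios of members within a library do not depend on how much other tissue dilutes it, as long as that tissue lacks both transcripts. They were examined after the values had been seen and carry no test. The ratio of Loxl2 to Lox was 1.32, 2.01 and 0.89 in Combination, 1.02, 2.17 and 1.19 in GC, 0.33, 0.42 and 0.40 in ICB and 0.16, 0.35 and 0.49 in Control. The 6 libraries with GC all lie above the 6 without it, with medians of 1.26 and 0.37, and the same held for 2.57% of all genes set against Lox. Of the 45 pairs of members 6 separated in this way in either direction, which compares with 3.91% of the pairs of a member with any other gene. Of these 6, 4 hold Loxl2 and the rest hold Loxl3, so they are not separate observations. The share of 6 in 45 is above that background, but pairs that share genes cannot show whether the family as a whole exceeds it. The ratio of Loxl2 to P4ha1 had a median of 0.33 with GC and 0.12 without, and Loxl2 was also higher relative to Loxl3 and Plod2. Loxl3 was lower relative to Plod1 and to Plod3: the Loxl3 to Plod3 ratio was 0.40 to 0.89 with GC and 1.04 to 1.59 without. Exons of Loxl3 overlap those of Htra2 on the other strand by up to 369 bases, and exons of Plod3 overlap those of Znhit1 by up to 315 bases. Exons of Loxl2 and Plod2 overlap antisense or unconfirmed transcripts by up to 244 and 346 bases. The strand setting of the counting is not given in the sources used here, and the values of these 4 genes are uncertain to that extent.

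**Figure D3:**
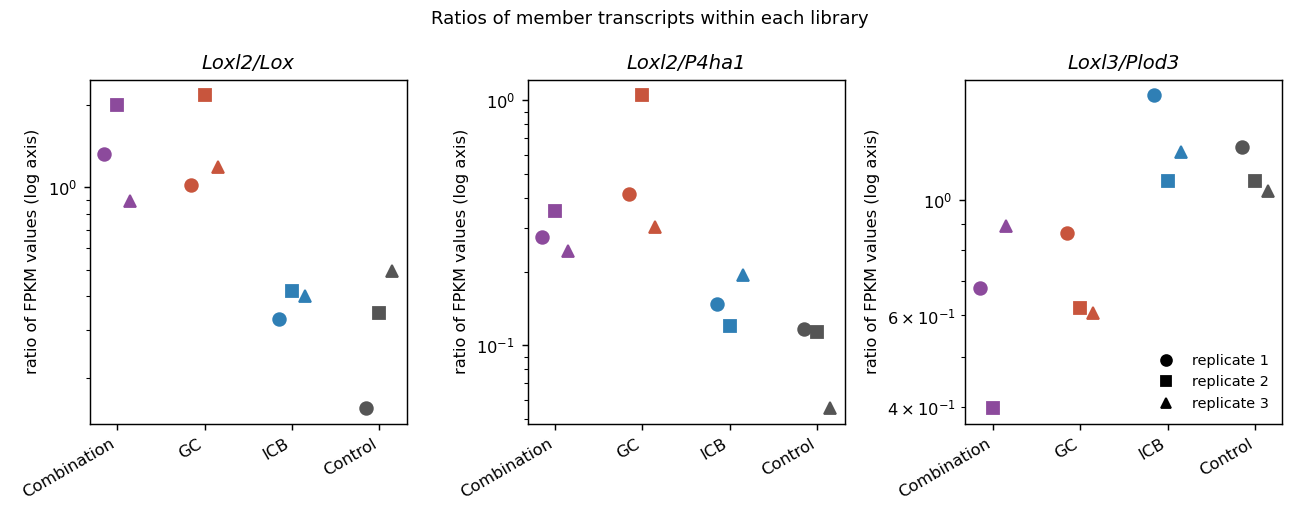
Ratio of 2 members' FPKM values within each library (y axis, log axis) for Loxl2 to Lox, Loxl2 to P4ha1 and Loxl3 to Plod3, by group (x axis), with a marker shape for each replicate. The pairs shown are among the 6 of 45 that separated. The Combination and GC libraries lie on one side of the ICB and Control libraries in each panel, from 0.89 to 2.17 against 0.16 to 0.49 for Loxl2 to Lox.

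The level of the enzymes was also set against that of their collagen substrate, of which limma called no chain against Control with all libraries in the fit (Col3a1 had adjusted p = 0.0495 for GC without the Combination libraries, and 0.0495 to 0.782 over the alternatives). The summed level of Col1a1, Col1a2 and Col3a1, the main fibrillar collagen chains, was 886 ± 597 FPKM in Combination, 2958 ± 915 in GC, 1450 ± 538 in ICB and 1069 ± 376 in Control (SD, n = 3 each). Per 1000 FPKM of this sum, P4ha1 amounted to 56.2 ± 11.0 FPKM in Combination, 27.8 ± 12.3 in GC, 72.7 ± 29.7 in ICB and 93.7 ± 35.0 in Control, and Plod2 to 17.0 ± 2.35, 11.2 ± 0.54, 21.7 ± 6.39 and 25.1 ± 7.20 in the same groups. On this scale 7 of the 10 members lay lower in every GC library than in every Control library, and Lox, Loxl1 and Loxl2 overlapped. The same held for 69.9% of all genes, so the count of 7 is not a result about the members. Loxl1 amounted to 11.0 to 11.7 FPKM per 1000 in the 3 GC libraries and to 11.7 to 17.7 in Control.

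Other genes of the pathway were read in lists. Of 20 tested genes for folding and modifying procollagen 0 were called against Control after GC or ICB or Combination, and their median log2 difference after GC was 0.24, beside 0.09 over all genes. The 4 with the smallest p after GC included Creb3l1, a transcription factor of the secretory pathway for collagen (13.9 ± 3.41 FPKM in GC and 2.90 ± 1.96 FPKM in Control, log2 difference 2.02 ± 0.44, limma adjusted p = 0.157). Of 5 tested procollagen processing genes 0 were called in each of these comparisons. Pcolce2, an enhancer of the C-terminal procollagen proteinase, was at 5.72 ± 0.99 FPKM in GC and 1.41 ± 1.20 FPKM in Control (1.59 ± 0.37, limma adjusted p = 0.172). Of 14 tested substrates of crosslinking 0 were called, 12 had estimates above 0 after GC and 12 had estimates below 0 in Combination (11 each under TMM scaling), against 58.1% and 67.0% of all genes in those directions. After ICB 13 of 14 had estimates above 0 (14 under TMM scaling), against 40.9% of all genes, so the higher estimates were not particular to GC. Without Combination replicate 2 the count for Combination was 6 of 14, beside 53.4% of all genes. Col3a1 was at 838 ± 254 FPKM in GC and 214 ± 105 FPKM in Control (2.05 ± 0.56, limma adjusted p = 0.222). Of 12 tested partners in fibril assembly 0 were called, and among them the collagen-binding proteoglycan Dcn was at 182 ± 82.3 FPKM in GC and 54.4 ± 28.8 FPKM in Control (1.82 ± 0.48, limma adjusted p = 0.212). Of 10 TGF-beta ligands, receptors and response genes 0 were called. All 10 had estimates below 0 in Combination (8 of 10 under TMM scaling), as did 67.0% of all genes. In the fit without Combination replicate 2 these were 5 of 10 and 53.4%.

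The 15 other HIF-1 targets gave lower estimates in both groups that received GC, with all libraries in the fit. Against Control all 15 were below 0 in Combination and all 15 in GC, where 67.0% and 41.9% of all genes were, while 2 of 15 were below 0 in ICB (1 of 15 under TMM scaling, which left the other 2 counts at 15). The count for Combination was also 15 without Combination replicate 2, beside 53.4% of all genes. The list mean was 5.67, 4.85 and 5.49 in GC replicates 1 to 3, and 6.81, 5.37 and 5.87 in Control. These groups overlap, and Control replicate 1 was the highest library. Adm, for example, was at 11.3, 4.90 and 9.06 FPKM in GC and at 37.3, 3.22 and 9.28 in Control. Against Control replicates 2 and 3 alone Adm was not lower in GC, so the count of 15 in GC depends on Control replicate 1. The full GC count was not recomputed without that library. One of the 15 was called in Combination. Kdm3a, a histone demethylase, fell to 8.98 ± 7.07 FPKM in Combination, against 28.9 ± 10.03 FPKM in Control (log2 difference -1.76 ± 0.43, limma adjusted p = 0.0429), and was lower in 3 of 3 Combination libraries. Its adjusted p lay between 0.00515 and 0.362 over the alternatives and missed the threshold in 15 of them, among them leaving out Combination replicate 2 or any library of Control, GC or ICB. The median of the list was -1.20 in Combination (-0.75 without Combination replicate 2) and -0.66 in GC. The estimates of the members P4ha1, P4ha2, Plod2 and Lox ran from -1.59 to -0.75 in Combination and from -0.31 to 0.34 in GC. Without Combination replicate 2 the Combination estimates were -0.48 for P4ha1, 0.16 for P4ha2, -0.17 for Plod2 and -0.80 for Lox. Of the 3 tested genes of copper supply, which lysyl oxidases need, Slc31a1, a copper importer, was higher in Combination than in Control and was called (28.1 ± 7.93 FPKM in Combination and 10.4 ± 2.92 FPKM in Control, 1.35 ± 0.28, limma adjusted p = 0.0210). It missed the threshold without Combination replicate 2, Control replicate 1 or Control replicate 2 and under 3 other alternatives, with adjusted p up to 0.379. The hepatocyte list mean ran from 4.86 to 11.0 in Combination and from 0.44 to 1.79 in Control. With that mean as a covariate neither gene passed (limma adjusted p = 0.362 for Kdm3a and 0.379 for Slc31a1).

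**Figure D4:**
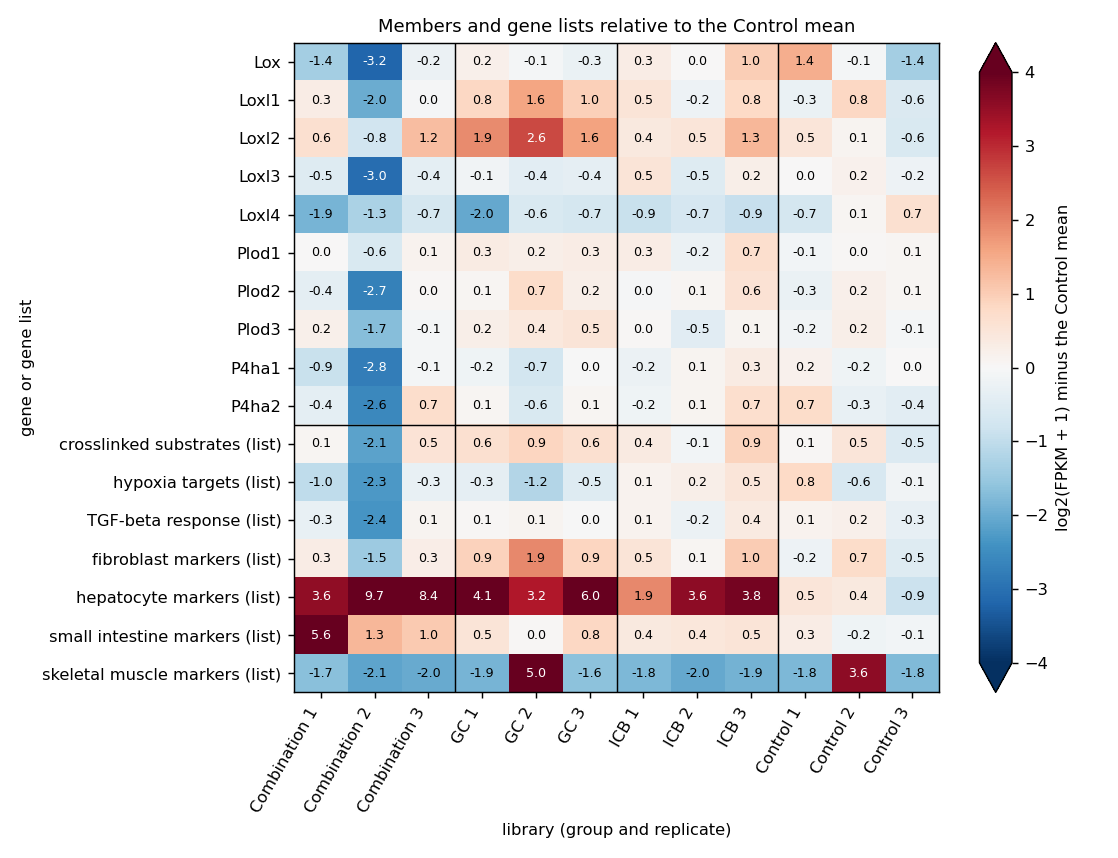
Log2(FPKM + 1) of each member, and the mean over each of 7 gene lists, in every library relative to the Control mean (colour and printed value, colours capped at 4 either way). Libraries run along the x axis by group and replicate, and genes and lists run down the y axis. The column of Combination replicate 2 is below 0 for all 10 members and 9.7 above the Control mean for hepatocyte markers. Loxl2 is above the Control mean in all 3 GC libraries, all 3 ICB libraries, Combination replicates 1 and 3 and Control replicates 1 and 2.

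Each member was also set against all tested genes by Pearson's r of log2(FPKM + 1) over the 12 libraries, as a description of libraries that share their tissue content. The gene most like Loxl2 was Adamtsl1 (r = 0.97 over 12 libraries, and 0.97 over 11 without Combination replicate 2), followed by Hs6st2 and Sp6 (r = 0.96 each). Loxl1 was most like Ssc5d (0.98, and 0.95 over 11), Olfml3 and Ak1 (0.97 each). Lox was most like Phf1 and Pdgfra, the fibroblast receptor for platelet-derived growth factor (0.97 each), and Pias4 (0.96). For Loxl3, Dnm1, Sfxn3 and Dvl2 came first (0.99 each). The nearest genes to Loxl4 (Rps6ka6, Prps2 and Fam45a) reached 0.78 at most, the lowest of the 10 members. Among the hydroxylases, Plod1 was most like the matrix glycoprotein gene Emilin1 (0.95), Plod3 most like Prkcd (0.99), P4ha1 most like Bcl2l11 (0.97) and P4ha2 most like Dusp4 and Col4a1, a basement membrane collagen chain (0.97 each). Plod2 was most like Antxr1 (0.97), a likeness that was 0.82 over the 11 libraries without Combination replicate 2.

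In the GRCm38 annotation (GENCODE M21) all 10 members are protein-coding genes. Loxl2 lies on chromosome 14 (69609068 to 69695834, plus strand), Loxl1 on chromosome 9 (58287738 to 58313186, minus strand), Loxl3 on chromosome 6 (83034173 to 83052562, plus strand) and Loxl4 on chromosome 19 (42593982 to 42612813, minus strand). Plod1 lies on chromosome 4 (147909753 to 147936767, minus strand), Plod2 on chromosome 9 (92542223 to 92608428, plus strand) and Plod3 on chromosome 5 (136987019 to 136996648, plus strand). P4ha1 lies on chromosome 10 (59323296 to 59373304, plus strand) and P4ha2 on chromosome 11 (54100095 to 54131665, plus strand).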

How the data were processed

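Gene expression was measured by bulk RNA sequencing in 12 tumour libraries, 3 in each of 4 groups taken from the sample titles. Libraries were made from total RNA with Qiagen stranded kits, per the labels' protocols. The values are FPKM per gene symbol as deposited by the authors, per the file headers. Per the submitters' processing notes, the tools named are HTSeq, SAMtools, HISAT2, cutadapt and FastQC and the build is mm10; versions and the step that made FPKM are not given in the sources used here. Low values (up to 0.1 FPKM) held no whole-read steps (at most 17.3% of genes in 1 ratio bin over 66 library pairs), so depth is unknown, no counting intervals are given and count models were not used. No column was left unmapped and no 2 columns were identical.

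Values were analysed as log2(FPKM + 1) with limma 3.58.1 in R 4.3.3, with group means of all 12 libraries in 1 fit, an intensity trend and Benjamini-Hochberg adjustment over 12765 genes averaging 1 FPKM or more. This scale understates changes of weakly expressed genes. Trimmed mean of M values (TMM) factors, computed on FPKM, served as an alternative only. The limma step was tested on simulated data. Genes named were all members, up to 4 genes of smallest p per pathway list in each comparison with Control, of which some are described, and the 3 genes most correlated with each member. Gene lists, members and tests were chosen with earlier results of these data known. Alternatives were other pseudocounts, filters and scaling, fits of the compared groups only, a replicate block, a hepatocyte covariate, no trend and leaving out libraries. The labels tie the replicate numbers in the titles to no animal or batch. Column names of the deposited values differ from the titles in number for Control, GC replicate 3 and Combination replicate 3, but not for ICB. Combination and ICB libraries with the same title number deviated together from their group means (r = 0.29, 0.14 and 0.20), which no other pair of groups did for all 3 numbers. By column name, however, replicate 3 of Combination and of ICB do not share a number. Differently numbered libraries also deviated together, such as GC replicate 3 with Combination replicate 2 (r = 0.43). These correlations therefore show no pairing. With the replicate block, which used the title numbers, Combination against ICB called 248 genes, against 286 without it, and 0 members either way.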

Additional observations from a re-analysis of the deposited data

How the results depend on the processing

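Of 147 recomputed counts of members called, 145 were 0, as in the report. The exceptions were GC against Control without the Combination libraries, with 1 (Loxl2), and Combination against GC when single libraries were left out, with 0 to 2 (Loxl1 and Plod3 without Combination replicate 1). Of 1264 recomputed differences, 1219 kept their sign and their side of the threshold, 3 passed it newly, and 42 turned sign. Leaving out a library of a group outside a comparison does not change its estimate, so part of the 1219 could not turn sign. No member passed with all libraries, so keeping the side of the threshold meant staying uncalled. The 1219 is therefore not a measure of how stable the differences are. The title numbers were not shown to link libraries of different groups. Outside Combination and ICB, libraries of the same title number had correlations from -0.24 to 0.42. With the replicate block members called stayed at 0 in each comparison, while all genes called were 3 against 1 for GC against Control, 53 against 85 for Combination against GC and 0 against 2 for the interaction. TMM scaling moved the median of all genes by 0.76 in Combination replicate 2 and by -0.20 to 0.26 in the others (log2). With hepatocyte content as a covariate, signs turned as follows: GC against Control gave 0.17 for Lox, 0.74 for Loxl3, 0.042 for P4ha1 and 0.14 for P4ha2, ICB against Control gave 0.45 for Plod3, Combination against Control gave 1.04 for Loxl1, 0.39 for Loxl3, 0.21 for Plod1, 0.40 for Plod2 and 0.77 for Plod3, Combination against ICB gave 0.030 for Loxl2 and 0.32 for Plod3. The hepatocyte list mean did not overlap between Control and any treated group, so in comparisons with Control this covariate cannot be separated from treatment. With TMM scaling, signs turned as follows: Combination against Control gave 0.16 for Plod1, Combination against GC gave 0.20 for Loxl4. Without the 2 muscle-containing libraries, signs turned as follows: ICB against Control gave 0.012 for Plod3 and -0.023 for P4ha1, Combination against GC gave 0.092 for Loxl4. Leaving out 1 library at a time turned other signs. For GC against Control the range was -0.72 to 0.68 for Lox and -0.37 to 0.21 for P4ha2. For ICB against Control the range was -0.25 to 1.15 for Lox, -0.14 to 0.38 for Loxl3, -0.21 to 0.073 for Plod3, -0.063 to 0.22 for P4ha1 and -0.041 to 0.56 for P4ha2. For Combination against Control the range was -1.01 to 0.13 for Loxl1, -0.057 to 0.94 for Loxl2, -0.31 to 0.075 for Plod1, -0.88 to 0.072 for Plod3 and -1.48 to 0.16 for P4ha2. For Combination against GC the range was -0.61 to 0.13 for Loxl4 and -1.33 to 0.31 for P4ha2. For Combination against ICB the range was -0.79 to 0.21 for Loxl2 and -0.78 to 0.18 for Plod3. For the interaction the range was -1.52 to 0.11 for P4ha2. The cause was not tested for any of these. Counts of all genes called ranged from 0 to 749 for GC against Control (1 in the report), 94 to 3167 for Combination against Control (504), 3 to 3014 for Combination against GC (85), 27 to 2050 for Combination against ICB (286), 0 to 812 for the interaction (2) and 69 to 1806 over the 4 groups (233), and were 0 throughout for ICB against Control. Loxl4 was not tested with a minimum mean of 10 FPKM. Sequencing depth is unknown, so counting error could not be separated from the spread between libraries.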
